A study of Mus musculus with 9 samples.

Results

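Inhibins and activins are dimers of a small set of subunits that granulosa cells, the steroid-producing cells around the oocyte, secrete. An α subunit (Inha) paired with a βA (Inhba) or βB (Inhbb) subunit gives an inhibin, which restrains FSH release from the pituitary, and pairs of β subunits give activins. Activins bind type II receptors (Acvr2a and Acvr2b), which recruit the type I receptor Acvr1b and signal through SMAD proteins. Follistatin (Fst) and follistatin-like 3 (Fstl3) bind activins outside the cell, and betaglycan (Tgfbr3) helps inhibin to occupy type II receptors. Circulating inhibin is used in the clinic as a marker of granulosa cell tumours.

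These 9 genes were described in RNA-seq data of mouse ovary, out of 55536 genes listed in the deposited tables. They were matched by Ensembl identifier to GENCODE M21 symbols, and all 9 passed the filter on low counts, as did 16213 genes in all. The 3 groups were granulosa cell tumour (ovaries labelled FOXL2 WT/C134W), hyperplasia (also labelled FOXL2 WT/C134W) and wild type (labelled FOXL2 WT/WT), with 3 libraries each. C134W is the amino acid change in the transcription factor FOXL2 that human adult-type granulosa cell tumours carry. The labels used here state no age, strain or cycle stage. They do not state that the libraries of a group came from separate animals either, so the p-values measure the spread between these samples, which may be technical. The titles of hyperplasia 3 and tumour 3 share a stem. The library numbers are names given in accession order.

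Total counts ran from 11661851 (tumour 3) to 20890537 (wild type 1) per library. Foxl2, whose gene counts cannot show the mutated base, had 267.9, 226.9 and 387.9 CPM in tumours (CPM being counts set to a common library size, here with TMM scaling), 184.2, 129.3 and 338.9 in hyperplasias and 203.2, 146.1 and 178 in wild type. All 12 granulosa markers examined were detected in each group, and their summed level was 4629 to 6284 CPM in tumours, 1552 to 4466 in hyperplasias and 2107 to 3739 in wild type. The FSH receptor Fshr, a defining granulosa marker, had 0 counts in tumour 2, against 81.8 and 80.7 CPM in tumours 1 and 3. Wild type 1 and tumour 2 stood apart. The Pearson correlation of log2(CPM + 1) was 0.914 and 0.922 for wild type 1 with the other wild-type libraries, and 0.898 and 0.908 for tumour 2 with the other tumours. Both also leaned to short genes, with a Spearman correlation across genes between gene length and level relative to the other libraries of -0.597 in wild type 1 and -0.275 in tumour 2, against 0.074 to 0.388 in the other 7. Results whose sign turned without those 2 libraries are given with and without them. Hyperplasia 3 correlated at 0.979 with tumour 3, whose title shares its stem, and at 0.966 with tumour 1. Its correlations were lower with hyperplasias 1 and 2 (0.962 and 0.959) and with tumour 2 (0.901).

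The genes lie on 7 chromosomes of GRCm38, with the coordinates of GENCODE M21. Inha (ENSMUSG00000032968) spans chr1:75507077-75510366 on the plus strand and Inhbb (ENSMUSG00000037035) spans chr1:119415465-119422248 on the minus strand. Inhba (ENSMUSG00000041324) is at chr13:16011851-16031621 on the plus strand, and Fst (ENSMUSG00000021765) at chr13:114452290-114458951 on the minus strand. Fstl3 (ENSMUSG00000020325) is at chr10:79777272-79782630, Acvr1b (ENSMUSG00000000532) at chr15:101174067-101213684, Acvr2a (ENSMUSG00000052155) at chr2:48814109-48903269 and Acvr2b (ENSMUSG00000061393) at chr9:119402118-119434995, all on the plus strand. Tgfbr3 (ENSMUSG00000029287) is at chr5:107106570-107289629 on the minus strand. Acvr2a shares 446 bases with Orc4 on the opposite strand, which had 236 to 937 counts per library. Without a stated strand setting, reads in that overlap cannot be assigned with certainty. The other genes that overlap a member had at most 7 counts in any library.

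The start windows of the 2 β subunit genes are shown because their levels parted most between libraries. RefSeq start windows (GRCm38.p6, 250 bases before and 50 after the start) were matched for 7 of the 9 genes. Each is printed 5′ to 3′ on the gene's own strand, and the single capital is the first transcribed base.
Inhba, chr13:16011601-16011900, plus strand: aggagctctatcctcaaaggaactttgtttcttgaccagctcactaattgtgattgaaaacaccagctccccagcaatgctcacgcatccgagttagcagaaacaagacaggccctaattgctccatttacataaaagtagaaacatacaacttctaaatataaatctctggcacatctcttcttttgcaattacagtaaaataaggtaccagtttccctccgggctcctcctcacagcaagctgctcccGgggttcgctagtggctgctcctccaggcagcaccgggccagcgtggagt
Inhbb, chr1:119422199-119422498, minus strand: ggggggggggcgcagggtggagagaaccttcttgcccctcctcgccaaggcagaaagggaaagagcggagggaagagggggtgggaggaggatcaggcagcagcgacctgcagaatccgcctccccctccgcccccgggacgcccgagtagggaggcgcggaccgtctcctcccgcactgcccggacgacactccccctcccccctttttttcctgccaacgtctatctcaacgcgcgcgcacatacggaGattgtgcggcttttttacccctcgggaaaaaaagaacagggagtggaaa
The Inhba window is 47.7% G and C, a content below which 30.8% of all 32851 windows fall, and the Inhbb window is 64.3% G and C, with 80.4% of windows below it. A search on both strands for 6 short motifs found none of them in either window. The motifs, with the share of all windows that hold each, were the forkhead core TGTTTA (13.4%), the SMAD half-box GTCTG (49.6%), the NR5A half-site AAGGTCA (4.72%), the cAMP response element core TGACGT (7.51%) with its variant TGCGTCA (2.12%), and the GATA core AGATAA (11.2%). GTCTG was found once each in the Acvr2a and Acvr2b windows and at 2 places in the Fstl3 window. The Acvr1b window held none of the 6. The start base of the Inha window in the table lies 532 bases inside the annotated gene, so it does not cover the annotated start and is not described further.

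Compared per length, in the authors' length-scaled TPM values, Inha stood far above the other 8 genes in each group. Inha averaged 2929 ± 901 TPM in tumours, 1532 ± 763 in hyperplasias and 1598 ± 488 in wild type (SD, n = 3 each), which ranked it 35th, 98th and 93rd among all genes in those groups. Below it in tumours came Inhbb at 110 ± 123 TPM and Fst at 104 ± 77.7 TPM, whose spreads overlapped fully. Tgfbr3 at 43.4 ± 20.7 TPM and Inhba at 22.6 ± 18.1 TPM followed, and the spreads of these neighbours also overlapped. Acvr1b (9.34 ± 2.36 TPM), Acvr2a (7.63 ± 4.44), Fstl3 (4.04 ± 2.45) and Acvr2b (3.58 ± 2.15) closed the order. In hyperplasia the order below Inha was Inhba (164 ± 219 TPM), Inhbb (110 ± 118), Fst (82.2 ± 49.9) and Tgfbr3 (53.6 ± 8.39). In wild type it was Inhba (198 ± 166 TPM), Fst (135 ± 64.8), Inhbb (130 ± 55.1) and Tgfbr3 (41.0 ± 20.9). The spreads of Inhba, Inhbb and Fst overlapped in each of these 2 groups. Inhba thus held the second place in hyperplasia and wild type and the fifth in tumours, but its spread in the first 2 groups was as large as its mean or nearly so. Acvr1b, Acvr2a, Fstl3 and Acvr2b kept the last 4 places in every group, at means between 3.52 and 11.8 TPM.

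**Figure D1:**
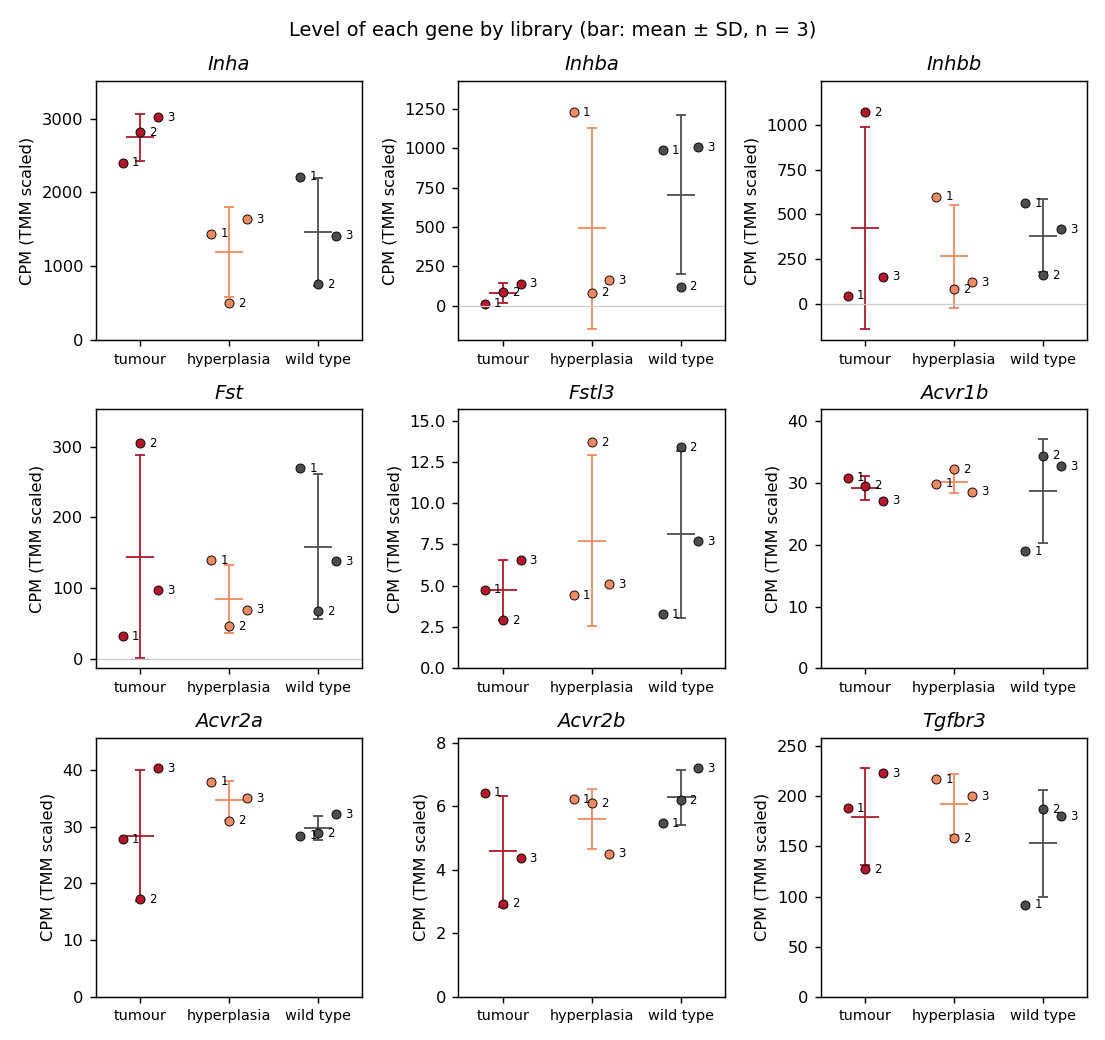
Level of each of the 9 genes in CPM (linear axes) in the 3 tumour, 3 hyperplasia and 3 wild-type libraries. Points carry the library number, bars are the mean ± SD, and a lower bar end can fall below 0. The 3 Inha points of tumours, from 2402 to 3021 CPM, lie above all others of that gene, while Inhba, Inhbb and Fst scatter widely within groups.

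Tumours were set against wild type to ask how the hormone subunits, their binding proteins and their receptors stood in tumours that carry FOXL2 C134W. Inha was higher in each tumour than in each wild-type ovary, Inhba averaged far lower, and the receptors lay close to wild type. None of the 9 genes passed the test (edgeR's quasi-likelihood test, adjusted over 16213 genes, threshold 0.05), where 1.6% of all genes tested did. At an unadjusted p under 0.05, 1 of the 9 passed, against 20.1% of all genes. Limma-voom also called 0 of the 9, against 1.67% of all genes, and DESeq2's Wald test called 1, Inhba, against 10.8% of all genes.

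The α subunit Inha had 2402, 2820 and 3021 CPM in tumours, 1438, 499 and 1633 CPM in hyperplasias and 2214, 757 and 1414 CPM in wild type. The tumour libraries lay above all 6 others, while hyperplasia and wild type overlapped. The log2 fold change of tumour against wild type was 0.91 (SE 0.51; adjusted p = 0.357, edgeR). Of the 9 genes, Inha was the only one whose tumours and wild-type libraries did not overlap; 10.6% of all genes lay wholly higher in tumours and 24.1% did not overlap in either direction. Its fold change was 0.588 to 1.34 on the log2 scale over 18 alternatives, the highest without wild type 1. Set against the summed level of the 12 granulosa markers (a description chosen after the values were seen), which do not include it, the level of Inha came to 51.9%, 60.8% and 48.1% of that sum in tumours, 46.0%, 32.2% and 36.6% in hyperplasias and 59.2%, 36.0% and 41.3% in wild type. On that scale tumours and wild type overlapped. Gja1 and Serpine2 made up much of the marker sum, averaging 1696 and 1275 CPM in tumours and 1399 and 475 CPM in wild type. Other markers added little to it, such as Fshr, Amh and Nr0b1 in tumour 2 (0, 0.0975 and 0.293 CPM). In bulk tissue, fewer cells of a type and less RNA per cell cannot be told apart.

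The βA subunit Inhba had 14.4, 84.5 and 140.7 CPM in tumours, 1228, 83.0 and 163.9 CPM in hyperplasias and 988.9, 120.7 and 1008 CPM in wild type. Hyperplasia 1 and wild types 1 and 3 were high and the other 6 libraries were at or below 164 CPM, so high and low libraries occurred in both hyperplasia and wild type. All 3 tumours were among the low ones, and tumour 3 stood above wild type 2. Inhba had a log2 fold change of -3.14 in tumours against wild type (SE 1.22; adjusted p = 0.196, edgeR; unadjusted p = 0.0299). DESeq2's Wald test on the same counts gave an adjusted p of 0.0248, and over the 18 alternatives the adjusted p ran from 0.0248 to 0.362 and the fold change from -3.83 to -2.64. RSEM's isoform-weighted length of Inhba ran from 3852 to 6390 bases between libraries, which moves its TPM and not its CPM.

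The βB subunit Inhbb had 48.3, 1069 and 154.1 CPM in tumours, 598.5, 85.5 and 121.5 CPM in hyperplasias and 562.8, 161.2 and 418.1 CPM in wild type. Tumour 2 was the highest of the 9 libraries and tumour 1 the lowest, so tumours spanned the whole range. The log2 fold change in tumours against wild type was 0.15 (SE 1.08; adjusted p = 0.958, edgeR). Without tumour 2 it was -1.91, and with tumour 2 and wild type 1 both left out it was -1.54.

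Fst, the activin-binding follistatin, had 31.7, 305.3 and 97.0 CPM in tumours, 139.1, 46.2 and 69.3 CPM in hyperplasias and 269.9, 67.2 and 138.2 CPM in wild type. Tumour 2 was again the highest library and tumour 1 the lowest. The log2 fold change in tumours against wild type was -0.13 (SE 0.78; adjusted p = 0.9497, edgeR), and -1.30 to 0.494 over the alternatives. Fstl3, the related binding protein, was measured at far lower counts, 30 to 227 per library. It had 4.77, 2.93 and 6.55 CPM in tumours, 4.44, 13.7 and 5.08 CPM in hyperplasias and 3.28, 13.4 and 7.70 CPM in wild type. Fstl3 was low in wild type 1 and tumour 2, where Fst was high, and high in hyperplasia 2 and wild type 2, where Fst was low. In tumour 1 and hyperplasia 3 both Fst (31.7 and 69.3 CPM) and Fstl3 (4.77 and 5.08 CPM) were low. The log2 fold change of Fstl3 in tumours against wild type was -0.77 (SE 0.62; adjusted p = 0.532, edgeR).

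The type I receptor Acvr1b had 30.9, 29.6 and 27.1 CPM in tumours, 29.9, 32.2 and 28.6 CPM in hyperplasias and 18.9, 34.4 and 32.7 CPM in wild type. All libraries but wild type 1 lay between 27.1 and 34.4 CPM. The fold change of tumours against wild type was 0.03 on the log2 scale (SE 0.25; adjusted p = 0.972, edgeR) and -0.24 with wild type 1 and tumour 2 both left out.

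Of the type II receptors, Acvr2a had 27.7, 17.3 and 40.3 CPM in tumours, 38.0, 31.1 and 34.99 CPM in hyperplasias and 28.4, 28.8 and 32.2 CPM in wild type. Tumours held both the lowest and the highest library. Acvr2b had 6.42, 2.93 and 4.37 CPM in tumours, 6.21, 6.09 and 4.50 CPM in hyperplasias and 5.47, 6.18 and 7.18 CPM in wild type, from 30 to 125 counts per library. Tumour 2 was the lowest library for both type II receptors. The log2 fold changes in tumours against wild type were -0.07 for Acvr2a (SE 0.29; adjusted p = 0.929, edgeR) and -0.45 for Acvr2b (SE 0.37; adjusted p = 0.540).

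Tgfbr3, the inhibin co-receptor betaglycan, had 188.2, 127.5 and 222.9 CPM in tumours, 217.1, 158.1 and 200.3 CPM in hyperplasias and 91.8, 187.0 and 180.2 CPM in wild type. Wild type 1 was the lowest library and tumour 2 the next lowest, and the groups overlapped. The log2 fold change was 0.23 in tumours against wild type (SE 0.32; adjusted p = 0.738, edgeR).

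Over the 18 alternatives of the tumour and wild-type comparison, the sign of the fold change was kept for Inha, Inhba, Fstl3 and Acvr2b and turned in at least 1 alternative for the other 5. The median log2 fold change of the 9 genes was -0.07, against 0.01 over all genes tested. Other cell types also differed between these groups, where edgeR called 202 of all 16213 genes tested lower in tumours. Of the 12 oocyte markers, 11 were tested and 7 were called lower in tumours, and their summed level was 5.07 to 23.8 CPM in tumours, with Zp2, Zar1 and Figla at 0, against 190.2 to 259.7 CPM in wild type. Of 10 luteal markers, 3 were called lower, with sums of 4090 to 4255 CPM in tumours and 13140 to 32300 CPM in wild type. Of 6 macrophage and 6 adipocyte markers, 1 each was called lower, with macrophage sums of 122.5 to 373.7 CPM in tumours and 611.6 to 790.5 CPM in wild type. The adipocyte sums were 13.1 to 18.3 CPM in tumours, with Adipoq, Cfd, Retn and Lep at 0, and 62.9 to 126.6 CPM in wild type. With 0 called, smooth muscle sums were 327.6 to 951.7 CPM in tumours and 1074 to 2304 CPM in wild type. Theca sums were 1544 to 3506 and 5631 to 8929 CPM, although 5 of the 8 theca markers had positive fold changes. Hsd3b1, also a luteal marker, averaged 2221 CPM in tumours and 6447 CPM in wild type. Sertoli sums were 55.69 to 66.61 and 31.45 to 53.31 CPM. Of the 4 Sertoli markers tested, 3 had positive fold changes and Cldn11 a negative one (-1.235 on the log2 scale). The highest Sertoli marker differed between tumours, being Gata1 in tumour 1 (20.39 CPM), Sox9 in tumour 2 (39.89 CPM) and Dhh in tumour 3 (36.29 CPM). Gata1 had only 0.4876 CPM in tumour 2. None of the 12 granulosa markers was called by edgeR, and DESeq2's Wald test called 3 higher, against 3.73% of all genes. None of these marker calls was made by edgeR with wild type 1 and tumour 2 both left out, or with a term for the shared title stem. Those fits called only 8 and 0 of all genes tested, so they cannot tell whether these marker differences remained. The part of these differences in the levels of the 9 genes was not tested.

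**Figure D2:**
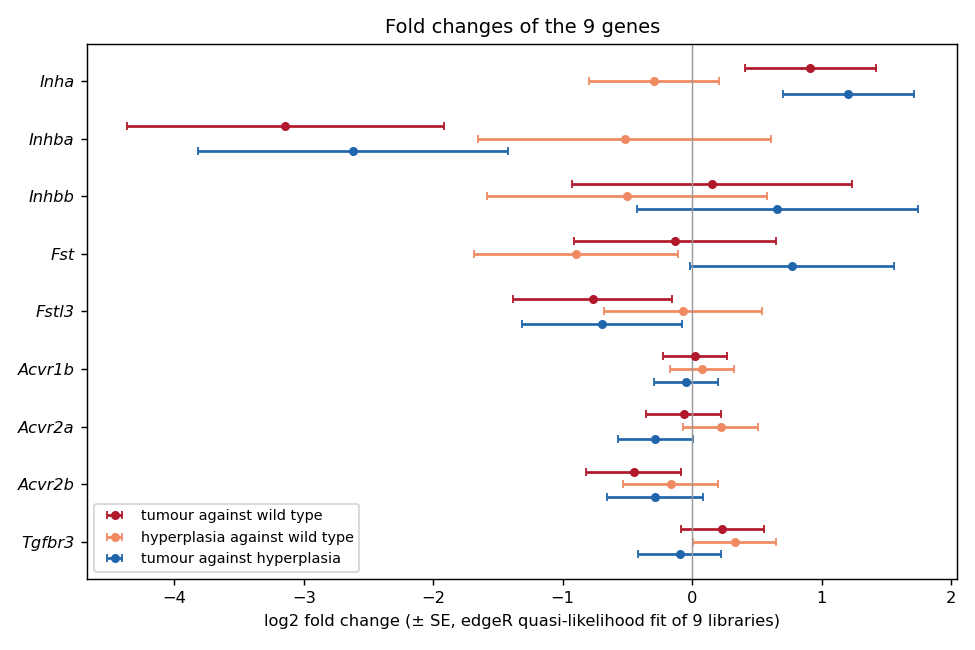
Log2 fold change ± SE of each gene (edgeR quasi-likelihood fit of 9 libraries) for tumours and hyperplasias, each against wild type, and for tumours against hyperplasias. Inha in tumours lies at 0.91 and 1.21, Inhba in tumours at -3.14 and -2.62, and the receptors lie within 0.5 of 0. The comparisons share libraries.

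Hyperplasia was set against wild type to ask how the genes stood in C134W ovaries labelled as hyperplastic. None of the 9 genes passed the test, where 0% of all genes did, and 0 of the 9 had an unadjusted p under 0.05, against 3.53% of all genes (edgeR). Limma-voom and DESeq2's Wald test also called 0 of the 9, against 0% and 0.117% of all genes. The values overlapped between the groups for all 9 genes; 9.81% of all genes tested did not overlap. The log2 fold changes were -0.30 for Inha, -0.52 for Inhba and -0.50 for Inhbb. They were -0.90 for Fst and -0.07 for Fstl3, and 0.07 for Acvr1b, 0.22 for Acvr2a, -0.17 for Acvr2b and 0.33 for Tgfbr3 (each adjusted p = 0.999, edgeR). Hyperplasia 1 carried most of the Inhba and Inhbb of its group, with 1228 and 598.5 CPM, and without it the fold changes were -2.51 for Inhba and -1.88 for Inhbb. Without hyperplasia 2 that of Inhba was 0.002. Of the marker lists, oocyte markers summed to 17.3 to 109.4 CPM in hyperplasias and 190.2 to 259.7 CPM in wild type, and adipocyte markers to 21.7 to 52.8 CPM in hyperplasias and 62.9 to 126.6 CPM in wild type. Smooth muscle markers summed to 2440 to 5750 CPM in hyperplasias and 1074 to 2304 CPM in wild type. None of these 3 lists overlapped between the groups in its sum, and 0 of their genes were called (edgeR). Their part in the member levels was not tested.

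Tumours were also set against hyperplasias, the other group labelled with C134W. Inha was again higher in all 3 tumours, with a log2 fold change of 1.21 (SE 0.51; adjusted p = 0.332, edgeR; unadjusted p = 0.0411), and Inhba had one of -2.62 (SE 1.199; adjusted p = 0.367). None of the 9 genes was called, where 0.185% of all genes were. At an unadjusted p under 0.05, 1 of the 9 passed, against 14.1% of all genes. Limma-voom and DESeq2's Wald test called 0, against 0.0247% and 5.03% of all genes. Inha was the only one of the 9 whose libraries did not overlap, as 21.9% of all genes did not (9.54% higher in tumours). Without hyperplasia 1 the fold change of Inhba was -0.63. The log2 fold changes of the other genes were 0.66 for Inhbb, 0.77 for Fst, -0.70 for Fstl3, -0.05 for Acvr1b, -0.29 for Acvr2a, -0.29 for Acvr2b and -0.10 for Tgfbr3. With wild type 1 and tumour 2 both left out they turned to -1.44 for Inhbb, -0.43 for Fst and 0.08 for Tgfbr3. For the pair with a shared title stem, tumour 3 had 3021 CPM of Inha against 1633 CPM in hyperplasia 3, a log2 ratio of 0.89, and 140.7 CPM of Inhba against 163.9 CPM, a log2 ratio of -0.22. Luteal markers summed to 4090 to 4255 CPM in tumours and 10330 to 18310 CPM in hyperplasias, with 1 of 10 called lower. Smooth muscle markers summed to 327.6 to 951.7 CPM in tumours and 2440 to 5750 CPM in hyperplasias, with 1 of 6 called lower. With 0 called, granulosa sums were 4629 to 6284 CPM in tumours and 1552 to 4466 CPM in hyperplasias. Macrophage sums were 122.5 to 373.7 and 543.9 to 951.7 CPM, and adipocyte sums 13.11 to 18.31 and 21.66 to 52.84 CPM. Theca sums were 1544 to 3506 and 4005 to 5849 CPM, although 6 of the 8 theca markers had positive fold changes. Hsd3b1, the theca marker shared with the luteal list, averaged 2221 CPM in tumours and 4747 CPM in hyperplasias. The part of these lists in the member levels was not tested.

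With all 6 libraries labelled C134W set against wild type, 0 of the 9 genes were called, where 0.0123% of all genes were, and 0 of the 9 had an unadjusted p under 0.05, against 11.8% of all genes (edgeR). Limma-voom called none of the 9, against 1.22% of all genes, and neither did DESeq2's Wald test, against 3.65%. Inha had a log2 fold change of 0.31 and Inhba one of -1.83 (SE 0.94; adjusted p = 0.498). That of Inhba was -2.83 without hyperplasia 1 and -1.48 without wild type 3. The others lay between -0.52 (Fst) and 0.28 (Tgfbr3), with Acvr1b at 0.05.

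Ratios within a library do not depend on the scaling between libraries, and 8 were formed from TPM. The ratio of Inha to Inhba was 473.2, 104.3 and 92.9 in tumours, 4.54, 23.2 and 43.6 in hyperplasias and 10.9, 23.2 and 4.97 in wild type. All 3 tumours lay above all 6 other libraries, and hyperplasia and wild type overlapped. The geometric means were 166.1 in tumours, 16.6 in hyperplasias and 10.8 in wild type. Tumours were 15.4-fold above wild type (log2 difference 3.94; exact two-sided permutation test, p = 0.1, the smallest that 3 against 3 allows; 0.4 adjusted over the 8 ratios). Against hyperplasia the log2 difference was 3.32 (exact permutation p = 0.1, adjusted 0.4). The difference from wild type was 3.19 to 4.50 on the log2 scale over 10 alternatives, which include ratios of expected counts (4.19) and the values without wild type 1 and tumour 2 (4.29). For hyperplasia against wild type the log2 difference was 0.62 (exact permutation p = 0.8).

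The ratio of Inha to Inhbb was 156.9, 8.39 and 63.2 in tumours, 7.69, 18.6 and 43.1 in hyperplasias and 12.6, 15.2 and 10.8 in wild type. Tumour 2, with its high Inhbb, lay below wild type here (log2 difference of tumours from wild type 1.78; exact permutation p = 0.4). That difference was 0.854 without tumour 1 and 2.97 without tumour 2. With both β subunits summed, the ratio was 117.8, 7.77 and 37.6 in tumours, 2.85, 10.3 and 21.7 in hyperplasias and 5.84, 9.19 and 3.40 in wild type. For this ratio tumour 2 lay within the range of wild type (log2 difference 2.52; exact permutation p = 0.2). The difference was 1.59 without tumour 1 and 3.55 without tumour 2.

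The β subunits were also set against each other. Inhba to Inhbb was 0.332, 0.0804 and 0.680 in tumours, 1.69, 0.802 and 0.989 in hyperplasias and 1.15, 0.655 and 2.18 in wild type. Every tumour held less Inhba than Inhbb per length, and all 3 lay below the hyperplasias (log2 difference -2.07; exact permutation p = 0.1, adjusted 0.4). Tumour 3 and wild type 2 overlapped (log2 difference of tumours from wild type -2.17; exact permutation p = 0.2).

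The ratio of Fst to the summed β subunits was 1.21, 0.682 and 0.961 in tumours, 0.208, 0.652 and 0.713 in hyperplasias and 0.617, 0.631 and 0.242 in wild type. All tumours lay above all wild-type libraries (log2 difference 1.02; exact permutation p = 0.1, adjusted 0.4), with tumour 2 only just above wild type 2. Fstl3 to Fst was 0.143, 0.00848 and 0.0650 in tumours, 0.0308, 0.320 and 0.0723 in hyperplasias and 0.0116, 0.192 and 0.0579 in wild type. Fst was the more abundant binding protein in all 9 libraries, and the groups overlapped. The log2 difference of Fstl3 to Fst was 0.82 in hyperplasia against wild type, -1.06 in tumours against hyperplasia and 0.29 for all C134W against wild type. With wild type 1 and tumour 2 both left out these turned to -0.24, 0.11 and -0.20.

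Acvr2a to Acvr2b was 1.34, 1.61 and 4.10 in tumours, 2.99, 2.62 and 3.45 in hyperplasias and 1.17, 1.90 and 2.08 in wild type. Hyperplasias lay above wild type in TPM (log2 difference 0.85; exact permutation p = 0.1, adjusted 0.8), with 0.387 to 1.012 over 10 alternatives. RSEM's weighted length of Acvr2b ran from 1436 to 2890 bases between libraries and enters this ratio. In counts the groups overlapped. Hyperplasia 2, with 429 counts of Acvr2a and 84 of Acvr2b, had a lower ratio than wild type 1, with 571 and 110. Tgfbr3 to the summed type II receptors was 3.43, 4.29 and 4.16 in tumours, 4.001, 3.27 and 4.16 in hyperplasias and 1.62, 4.03 and 3.47 in wild type, with wild type 1 far below the other 8. In tumours against hyperplasia this log2 difference was 0.06, and -0.005 with wild type 1 and tumour 2 both left out. Of the 8 ratios in each comparison, the lowest adjusted p was 0.4 for tumour against wild type.

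**Figure D3:**
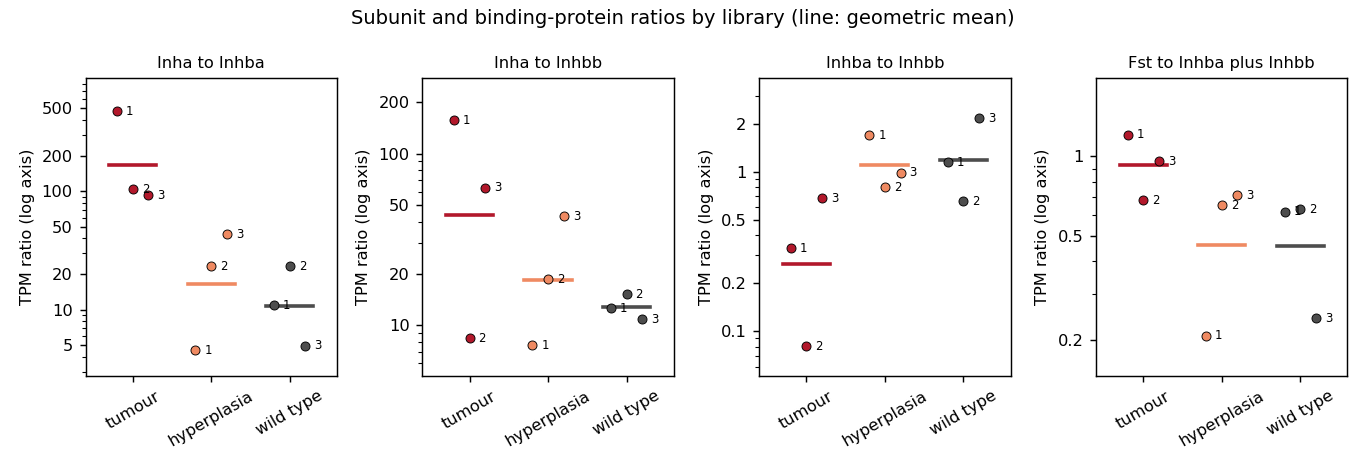
Ratios of TPM within each library on log axes, for Inha to Inhba, Inha to Inhbb, Inhba to Inhbb and Fst to the sum of Inhba and Inhbb; lines are geometric means and points carry the library number. The 3 tumours lie at 92.9 or above for Inha to Inhba, with every other library at 43.6 or below, while tumour 2 is among the lowest libraries for Inha to Inhbb.

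The pattern of each gene over the 9 libraries was compared with that of 14918 genes, as the root mean square difference of log2(CPM + 1) values centred on each gene's mean. This is a description over 9 libraries that also share depth and cell makeup. The own spread of the genes, by the same measure, was 1.98 for Inhba, 1.398 for Inhbb, 1.03 for Fst, 0.823 for Inha and 0.648 for Fstl3. The receptors were steadier, at 0.229 for Acvr1b, 0.309 for Acvr2b, 0.323 for Acvr2a and 0.385 for Tgfbr3. Among the 9 the smallest differences lay between the steady receptors, with 0.290 between Acvr1b and Tgfbr3. Inhbb and Fst, both with wide own spread, differed by 0.502, and Fst was the nearest of all genes to Inhbb. Next to Inhbb came Igfbp3, which binds insulin-like growth factors (0.628), and Tox2 (0.658). Nearest to Fst were Eno1b (0.370), the transcriptional repressor Hey2 (0.428) and Enpp6 (0.456).

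No gene came close to Inhba, whose nearest were Smim10l2a (1.14), the inositol oxygenase Miox (1.18) and the fatty acid binding protein Fabp4 (1.21), which is also on the adipocyte marker list. Nearest to Inha were Zbtb8b (0.238), Mpped2 (0.240) and Tnni3, the cardiac troponin I gene (0.287). For Fstl3 they were Aldh5a1 (0.182), Sfxn5 (0.227) and Loxl4 (0.244). For Acvr1b they were Gpalpp1 (0.053), Arcn1 (0.075) and Rbl2 (0.076), and for Acvr2a Bmt2 (0.073), Znrf2 (0.075) and Slc25a36 (0.111). For Acvr2b they were Unc5b (0.110), Rbmx (0.115) and Trim6 (0.130), and for Tgfbr3 Zmym4 (0.071), Cramp1l (0.074) and Pdxk (0.075).

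**Figure D4:**
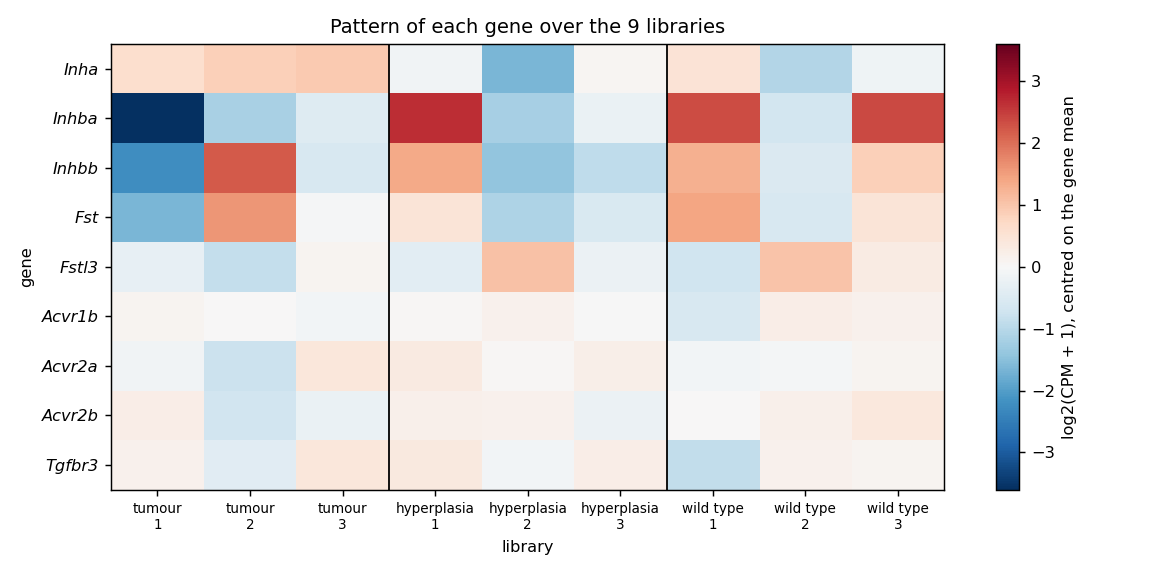
Log2(CPM + 1) of each gene in each library, centred on the gene's mean over the 9 libraries (red above, blue below). Inhbb and Fst are both high in tumour 2 and wild type 1 and low in tumour 1, and Inhba is highest in hyperplasia 1 and wild types 1 and 3.

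The rest of the pathway was read from 64 listed genes in 7 lists, of which 54 passed the filter on low counts. None was called in tumours against wild type (edgeR's quasi-likelihood test), where 1.6% of all genes were. At an unadjusted p under 0.05, 13 of the 54 were higher and 10 lower, against 8.41% and 11.7% of all genes. Limma-voom called 1, Gdf9 (1.67% of all genes), and DESeq2's Wald test called 13, with 8 higher and 5 lower, against 3.73% and 7.05% of all genes. The median log2 fold change of the 54 was 0.28, against 0.01 over all genes tested. Of the SMAD transducers and partners, 5 of 6 were tested and all 5 had positive fold changes, with a median of 0.74. Wild type 1, which leaned to short genes, was the lowest of the 9 libraries for Smad2, Smad3, Smad4 and Zfyve9, but not for Foxl2. Smad4 had 110.8, 116.2 and 123.6 CPM in tumours and 72.8, 107.2 and 113.1 CPM in wild type. Smad3, which carries the activin signal to the nucleus, averaged 205.3 ± 32.2 CPM in tumours and 80.8 ± 20.3 CPM in wild type (SD, n = 3 each; log2 fold change 1.35, adjusted p = 0.0694, edgeR). Smad2 (0.60), the SMAD anchor Zfyve9 (0.75) and Foxl2 (0.74) had smaller ones, each short of the threshold, as was every pathway fold change named below.

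Among the other 9 receptors of the family, Bmpr1b, a BMP type I receptor, averaged 200.3 ± 37.1 CPM in tumours and 84.3 ± 29.6 CPM in wild type (log2 fold change 1.25, adjusted p = 0.107, edgeR). Amhr2, the receptor of anti-Müllerian hormone, averaged 362.2 ± 126.9 CPM in tumours and 120.2 ± 18.1 CPM in wild type (1.59, adjusted p = 0.119); Amhr2, like Amh, Esr2, Foxl2 and Fshr, is also one of the granulosa markers. Acvr1c, a type I receptor for activin B, had -2.07 on the log2 scale, at 0.433 CPM on average in tumours and 1.88 CPM in wild type. Acvr1, a type I receptor that also binds activin, had -0.68.

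Of 11 other ligands, 7 were tested, with a median log2 fold change of -1.17. Gdf9, an oocyte growth factor, had 1.92, 4.58 and 1.18 CPM in tumours and 45.5, 31.9 and 45.2 CPM in wild type (log2 fold change -4.01, adjusted p = 0.0537, edgeR). Bmp15, its oocyte partner, had 2 counts over the 3 tumours and 966 over the 3 wild-type libraries, a ratio of wild type over tumours of 330.2 with an exact 95% counting interval of 91.2 to 2730. Gdf9 and Bmp15 are also on the oocyte marker list, whose sums are given above. Tgfb1 had a log2 fold change of -0.90 (adjusted p = 0.0722). Amh, the granulosa-derived anti-Müllerian hormone, had 7.81, 0.0975 and 39.4 CPM in tumours and 222.4, 220.7 and 210.7 CPM in wild type (log2 fold change -3.79, adjusted p = 0.121). Amh was low in every tumour, and its 3 hyperplasia libraries, at 6.59 to 16.3 CPM, lay below wild type as well.

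All 11 feedback and intracellular inhibitors were tested, 7 with positive and 4 with negative fold changes and a median of 0.35. The co-repressors Tgif1 (0.90), Ski (0.87) and Tgif2 (0.95) and the receptor feedback inhibitor Pmepa1 (0.65) had the smallest adjusted p, from 0.131 to 0.218 (edgeR). Of 13 other extracellular binding proteins, 8 were tested, with a median of 0.88. Grem1, a BMP antagonist, averaged 0.553 CPM in tumours, with 0 counts in tumours 1 and 3, and 72.6 ± 72.1 CPM in wild type (adjusted p = 0.0758). The secreted protease Htra1 had a log2 fold change of 1.18 and the binding protein Wfikkn2 one of 0.88. The 4 proprotein convertases, which cut precursors of the family, had a median of 1.04. Pcsk6 averaged 302.8 ± 259.2 CPM in tumours and 51.6 ± 13.3 CPM in wild type (2.55, adjusted p = 0.143), Pcsk5 had 1.93, Pcsk7 0.14 and Furin -0.21.

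Of the 10 regulators of inhibin subunit transcription, 5 had positive and 5 negative fold changes, with a median of 0.15. Esr2, the oestrogen receptor β gene of granulosa cells, averaged 191.9 ± 35.1 CPM in tumours and 57.6 ± 21.2 CPM in wild type (log2 fold change 1.74, adjusted p = 0.0573, edgeR). Lhcgr, the LH receptor gene and one of the luteal markers, had -2.53 (adjusted p = 0.0868). Gata6 had 0.82 and Gata4 had 0.58.

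In hyperplasia against wild type, 0 of the 54 pathway genes were called (edgeR), with a median of 0.14. At an unadjusted p under 0.05 there were 4, against 3.53% of all genes, and limma-voom and DESeq2's Wald test called 0, against 0% and 0.117% of all genes. In tumours against hyperplasia, 0 were called (edgeR), with a median of 0.08 and 12 at an unadjusted p under 0.05, against 14.1% of all genes. Limma-voom called 0, against 0.0247% of all genes, and DESeq2's Wald test called 4, against 5.03%. With all C134W libraries against wild type, 0 of the 54 were called (edgeR), with 12 at an unadjusted p under 0.05, against 11.8% of all genes. Limma-voom called 2 of the 54, against 1.22% of all genes, and DESeq2's Wald test called 7, against 3.65%.

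**Figure D5:**
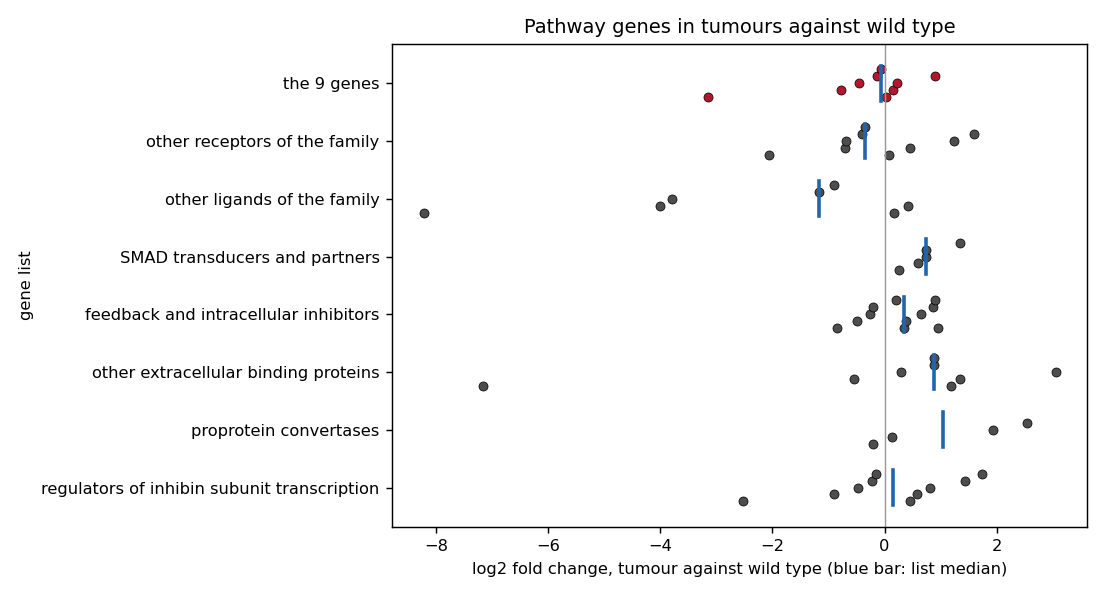
Log2 fold changes of tumour against wild type for the 9 genes and the tested genes of 7 pathway lists, 1 point a gene (the vertical offset has no meaning), with list medians in blue. The 5 SMAD transducers and partners all lie above 0, with a median of 0.74, and the 7 other ligands have a median of -1.17. Wild type 1 was the lowest library for Smad2, Smad3, Smad4 and Zfyve9.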

How the data were processed

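Per the labels' protocols, Trizol served for RNA extraction and a TruSeq mRNA kit that keeps strand for the libraries. Tools named in the submitters' processing notes are RSEM 1.3.1, STAR 2.7.1a, Picard 2.8.1 and FastQC, with the genome build GRCm38. The strand setting and annotation release are not given in the sources used here. The authors deposited, per the file headers, RSEM expected counts, TPM and FPKM for each gene and library; 25.6% of the deposited expected counts above 0 were not whole, since RSEM shares reads between genes and isoforms. The deposited TPM and FPKM values are scaled by the authors for length and depth.

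Expected counts were rounded and tested with edgeR 4.0.16 (R 4.3.3) by quasi-likelihood, with TMM factors from 0.797 to 1.078, filterByExpr (count minimum 10, total minimum 15), 1 fit of 9 libraries and Benjamini-Hochberg adjustment over 16213 genes, threshold 0.05. The common biological coefficient of variation was 0.432. Ratios of TPM were compared by exact permutation in Python (scipy 1.17.1). Pattern likeness took in the genes averaging 1 CPM or more. No pair of libraries agreed within sampling noise (lowest chi-square 25 per degree of freedom). Alternatives were DESeq2 1.42.0, limma 3.58.1 (voom, and log2(TPM + 1) and log2(TPM + 0.1)), other filters, a term for the shared title stem, fits of only the groups compared, other ratio units and each replicate left out. Scripts were checked on simulated data.

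The 9 genes, the lists and the markers were chosen with earlier results of these data known. All 9 genes are named, with, from each pathway list, every called gene and up to 4 others of smallest adjusted p in tumours against wild type, and the 3 nearest named genes of each member by pattern. A gene that this rule also names is not reported here. Intervals cover counting error only. Protein sequences were not used here.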

Additional observations from a re-analysis of the deposited data

Results flagged for a closer look

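In 9 gene levels and 8 ratios over the 6 libraries labelled C134W, the extreme library was set against the range of the group. The log2 ratio of Fst to Inhba plus Inhbb stood out in hyperplasia 1, the lowest of the 6, whose gap to the nearest library was 0.649 of the whole range, above Dixon's 95% critical value. The ratio there was 0.208, against 0.652 to 1.21 in the other 5 C134W libraries, and wild type 3 had a similar 0.242. This was 1 of 17 values examined, and chance gives about 1 in 20.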

How the results depend on the processing

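Of the alternatives, 586 of the member fold changes kept direction and side of the threshold, 52 turned sign and 1 passed the threshold. Of the ratios, 322 kept and 22 turned. The exact permutation test cannot go below p = 0.1 with 3 against 3 libraries, so for those ratios only the sign could change. No paired analysis was possible because the labels give no replicate numbers shared between groups; a term for the shared title stem was fitted instead. The cause of the changes below was not tested. Total counts and 3 libraries a group limit the precision, and for all C134W a fit of only the groups compared is the main fit.

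The number of genes called in tumours against wild type, 259, was 1747 by DESeq2's Wald test, 726 with no filter, 0 with the stem term (2610 at an unadjusted p under 0.05) and 8 with wild type 1 and tumour 2 both left out, an alternative chosen after seeing the data. Leaving out each library gave 0 to 404, with 0 without tumour 3 (3147 at an unadjusted p under 0.05) and without wild type 3 (2843), 2 without tumour 1, 15 and 18 without wild types 1 and 2, 69 without tumour 2, 59 without hyperplasia 2 and 404 without hyperplasia 3. In hyperplasia against wild type, 0 became 19 by the Wald test, 1 on log2(TPM + 1), 2 with no filter, 3 with only the groups compared, 2 with both left out and 0 to 3 leaving out each library (3 without tumour 2). In tumours against hyperplasia, 30 became 816 by the Wald test, 108 and 60 on log2(TPM + 0.1) and log2(TPM + 1), 4 by voom, 199 with no filter, 1 with only the groups compared, 12 with the stem term, 0 with both left out (3081 at an unadjusted p under 0.05) and 0 to 128 leaving out each library. That count was 0 without tumour 3 (2514 at an unadjusted p under 0.05), 128 without hyperplasia 3, and 2 to 13 without each of the other 7. For all C134W, 2 became 591 by the Wald test, 0 and 99 on log2(TPM + 0.1) and log2(TPM + 1), 198 by voom, 333 with no filter, 0 with the stem term and 0 to about 1.3e+02 leaving out each library (the highest without hyperplasia 1, 7 without tumour 2, 1 without hyperplasia 3 or tumour 1, and 0 without hyperplasia 2, tumour 3, wild type 1 or wild type 3, with 1540 to 1967 at an unadjusted p under 0.05). The counts at an unadjusted p under 0.05 beside the zeros were 1404 on log2(TPM + 0.1) and 1289 with the stem term.

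The TPM fits moved the median of all genes by -0.147 and -0.122 in tumours against wild type, by 0.157 and 0.136 in hyperplasia and by -0.283 and -0.23 in tumours against hyperplasia (pseudocounts 0.1 and 1). Log2 fold changes that turned sign there were, in tumours against wild type, -0.073 and -0.077 for Acvr1b and -0.893 and -0.873 for Inhbb, in tumours against hyperplasia -0.195 and -0.185 for Inhbb, and in hyperplasia 0.05 and 0.017 for Fstl3. Voom gave Inhbb -0.686 in tumours against wild type, and the stem term gave Fst 0.026 there, and for all C134W -0.088 for Acvr2a and 0.201 for Inhbb. With wild type 1 and tumour 2 both left out, tumours against wild type turned for Acvr1b (-0.237), Acvr2a (0.132) and Inhbb (-1.541), hyperplasia for Acvr1b (-0.156) and Inha (0.131), all C134W for Acvr1b (-0.197), and tumours against hyperplasia for Fst (-0.427), Inhbb (-1.44) and Tgfbr3 (0.076). The log2 ratio of Fstl3 to Fst turned to -0.197 for all C134W, -0.241 in hyperplasia and 0.11 in tumours against hyperplasia, and that of Tgfbr3 to the type II receptors to -0.005 in the last. Inhba in tumours passed the threshold by DESeq2's Wald test alone (-3.144, adjusted p 0.0248; 0.121 to 0.362 under the other 17 alternatives).

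Leaving out each library in turn gave log2 fold changes on both sides of 0 as follows. In tumours against wild type they were -0.2 to 0.16 for Acvr1b, -0.4 to 0.194 for Acvr2a, -1.299 to 0.494 for Fst, -1.91 to 0.687 for Inhbb and -0.031 to 0.429 for Tgfbr3. In hyperplasia against wild type they were -0.15 to 0.231 for Acvr1b, -0.756 to 0.492 for Fstl3, -0.596 to 0.134 for Inha and -2.513 to 0.002 for Inhba. In tumours against hyperplasia they were -0.091 to 0.001 for Acvr1b, -0.4 to 1.322 for Fst, -1.408 to 2.032 for Inhbb and -0.28 to 0.1 for Tgfbr3. For all C134W they were -0.175 to 0.195 for Acvr1b, -0.089 to 0.207 for Acvr2a, -1.099 to 0.11 for Fst, -0.797 to 0.138 for Fstl3, -0.004 to 0.737 for Inha and -1.206 to 0.221 for Inhbb. Of the log2 ratios, tumours against wild type gave -0.18 to 0.627 for Acvr2a to Acvr2b and -1.3 to 0.93 for Fstl3 to Fst, and tumours against hyperplasia gave -1.928 to 0.11 for Fstl3 to Fst and -0.05 to 0.156 for Tgfbr3 to the type II receptors. Hyperplasia gave -0.445 to 0.582 for Fst to the β subunits, -0.241 to 1.784 for Fstl3 to Fst, -0.064 to 1.398 for Inha to both β subunits, -0.073 to 1.558 for Inha to Inhba, -0.091 to 1.152 for Inha to Inhbb and -0.521 to 0.346 for Inhba to Inhbb. For all C134W, Fstl3 to Fst gave -0.77 to 1.254.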
